A study of Canis lupus familiaris with 8 samples.

Results

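UCN, NPY, GAL, PENK, PRPH and KIF1A are 6 of the 24580 genes measured, 4 of them genes of secreted peptides and the other two genes of the nerve fibre. They were matched by gene symbol, each to 1 gene, and were chosen by their measured values: most stood high in the adrenal cortex library of unexposed Beagles, and NPY also differed in the pituitary. Messenger RNA was sequenced in adult dogs of 2 breeds, Chinese Field Dog and Beagle, in adrenal cortex and in pituitary. One arm of each breed was under chronic stress exposure, and the other, which the labels call non-disposal and the design calls normal control, is called unexposed here. Each of the 8 combinations (stressed Chinese Field Dog, stressed Beagle, unexposed Chinese Field Dog and unexposed Beagle, in either tissue) held 1 library. The labels do not say whether a library is 1 dog or a pool, or what the stress consisted of, and a note on extraction names spleen where every other label names adrenal cortex or pituitary. With 1 library a group, any difference between a pair of libraries may be a difference between dogs, dissections or preparations as well as between groups.

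The adrenal gland has a cortex that makes steroids around a medulla of chromaffin cells, which are relatives of sympathetic neurons and release catecholamines from dense-core granules on a signal from preganglionic nerves. Peptides are stored in the same granules: enkephalins cut from the PENK precursor, neuropeptide Y from NPY and galanin from GAL. Urocortin, from UCN, belongs to the corticotropin-releasing hormone family and binds both receptors of that hormone. PRPH encodes peripherin, an intermediate filament of peripheral neurons, and KIF1A a kinesin motor that carries vesicle precursors along axons.

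Recovered reads ranged from 15803901 to 18712035 in the adrenal cortex libraries and from 14327357 to 15756312 in the pituitary libraries. The lowest total, of the unexposed Beagle pituitary, lacks GH1, whose estimate failed there. GH1 had 832085 to 893889 reads in the other 3 pituitary libraries. A gene with 0 reads and no failed estimate could have had up to 3. Steroid genes marked the adrenal libraries as cortex: the summed FPKM (fragments scaled to gene length and sequencing depth, a level per length) of 6 matched cortex markers was 18376 in stressed Chinese Field Dogs, 13980 in stressed Beagles, 14025 in unexposed Chinese Field Dogs and 15820 in unexposed Beagles. The medulla was present in the same libraries. The 9 chromaffin catecholamine genes summed to 923, 1425, 1065 and 2411 FPKM in the same order, so the unexposed Beagle library stood highest. Of the 13757 genes that averaged 1 FPKM or more over the adrenal libraries, 190 were at least 2-fold higher in the unexposed Beagle adrenal library than in each of the other 3, while the corresponding number was 53 for stressed Chinese Field Dogs, 44 for stressed Beagles and 59 for unexposed Chinese Field Dogs. The stressed Chinese Field Dog pituitary also stood apart: 8 forebrain neuron markers summed to 585 FPKM there, against 5.70 in stressed Beagles, 4.47 in unexposed Chinese Field Dogs and 4.56 in unexposed Beagles.

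The 3 peptide genes UCN, NPY and GAL and the filament gene PRPH were high in the unexposed Beagle adrenal cortex and low in the other 3 adrenal libraries, by 6.71-fold to 17.5-fold. KIF1A followed by a smaller factor, and PENK did not separate that library. NPY was at 25.8 FPKM in stressed Chinese Field Dogs, 35.2 in stressed Beagles, 27.1 in unexposed Chinese Field Dogs and 266 in unexposed Beagles, from 169, 266, 231 and 1789 reads. The first 3 libraries lay close together and the unexposed Beagle library stood far above them. By FPKM, NPY was 7.55-fold lower in stressed Beagles than in unexposed Beagles, with a log2 difference of -2.88 after adding 1 to each value, and the read ratio had a 95% Clopper-Pearson interval of -3.09 to -2.72 on the log2 scale. Such intervals cover counting error only, and in bulk tissue fewer cells of a type cannot be told apart from less RNA per cell.

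GAL was at 8.18 FPKM in stressed Chinese Field Dogs, 14.3 in stressed Beagles, 12.2 in unexposed Chinese Field Dogs and 106 in unexposed Beagles, from 75, 152, 146 and 1003 reads. It showed the same single high library. The log2 difference from unexposed Beagles was -3.54 in stressed Chinese Field Dogs, -2.80 in stressed Beagles and -3.02 in unexposed Chinese Field Dogs. Those 3 differences share the unexposed Beagle library, as do all comparisons with it below, so they are not independent of each other.

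UCN had the fewest reads: 21 in stressed Chinese Field Dogs, 15 in stressed Beagles, 12 in unexposed Chinese Field Dogs and 163 in unexposed Beagles. The levels were 6.80, 4.21, 2.97 and 51.9 FPKM in the same order, again with only the unexposed Beagle library high. UCN was 12.3-fold lower in stressed than in unexposed Beagles by FPKM, with a log2 difference of -3.35 and an interval of the read ratio of -4.46 to -2.83. UCN and TRIM54, a gene of muscle filaments, are given the same span in the deposited table (chromosome 17, 21257074 to 21279991, CanFam3.1), and how reads were shared between them is not given in the sources used here. TRIM54 was at 0.495, 0.394, 0.213 and 2.06 FPKM in the 4 adrenal libraries in the same order, so that it too was highest in unexposed Beagles, and reads of the pair cannot be told apart from these files.

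**Figure D1:**
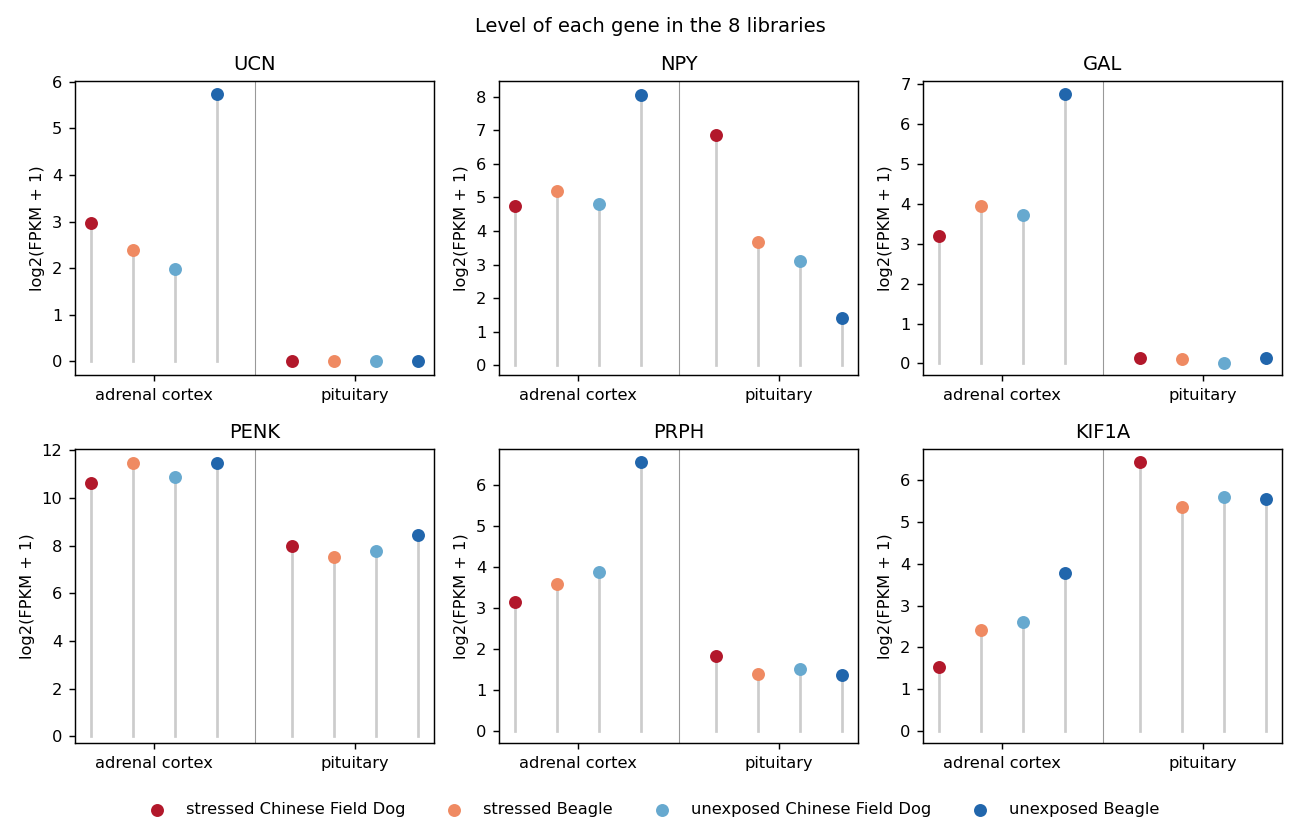
Level of each gene as log2(FPKM + 1) in the 4 adrenal cortex and 4 pituitary libraries, 1 point per library with a line down to 0, and no error bars because each group held 1 library. UCN, NPY, GAL and PRPH are highest in the unexposed Beagle adrenal cortex, UCN lies at 0 in all 4 pituitary libraries, and NPY in the pituitary is highest in stressed Chinese Field Dogs.

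PENK, the enkephalin precursor, was the most abundant of the 6 in every adrenal library. It was at 1586 FPKM in stressed Chinese Field Dogs, 2804 in stressed Beagles, 1878 in unexposed Chinese Field Dogs and 2854 in unexposed Beagles, and by FPKM it ranked 132, 77, 97 and 72 among all genes of those libraries. Both Beagle libraries lay above both Chinese Field Dog libraries, whatever the exposure. The log2 difference between stressed and unexposed Beagles was -0.03, with an interval of the read ratio of -0.04 to 0.02, and stressed Chinese Field Dogs differed from unexposed Beagles by -0.85. NPY, by contrast, ranked 4162, 3098, 3918 and 396 in the same order of libraries.

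PRPH was at 7.77 FPKM in stressed Chinese Field Dogs, 10.9 in stressed Beagles, 13.8 in unexposed Chinese Field Dogs and 92.3 in unexposed Beagles, from 179, 291, 413 and 2209 reads. The filament gene thus had the same high library as the peptides. KIF1A was at 1.90, 4.32, 5.13 and 12.7 FPKM in the same order, from 131, 347, 463 and 915 reads. Its high library was the same, but the spread among the other 3 was wider, and stressed Chinese Field Dogs were lowest.

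Counting members at least 2-fold lower (log2 difference of -1 or less) than in unexposed Beagles in each of the other 3 adrenal libraries gave 5 of 6, all but PENK, against 190 of all 13757 genes tested, or 1.38%. In single comparisons with unexposed Beagles the same 5 members were 2-fold lower, beside 4.16% of all genes in stressed Chinese Field Dogs, 2.45% in stressed Beagles and 2.7% in unexposed Chinese Field Dogs. The members were selected on this difference, so the counts describe them and no test is given. The members were also ranked by their smallest difference among the 10975 genes with at least 100 reads in the unexposed Beagle adrenal library. NPY came 1, GAL 2, UCN 3, PRPH 5, KIF1A 85 and PENK 2787. UCN had 163 reads there and 12 to 21 in the other adrenal libraries, so it passed this filter only through the library where it was high. The ranks restate the difference that chose the members and are no test.

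**Figure D2:**
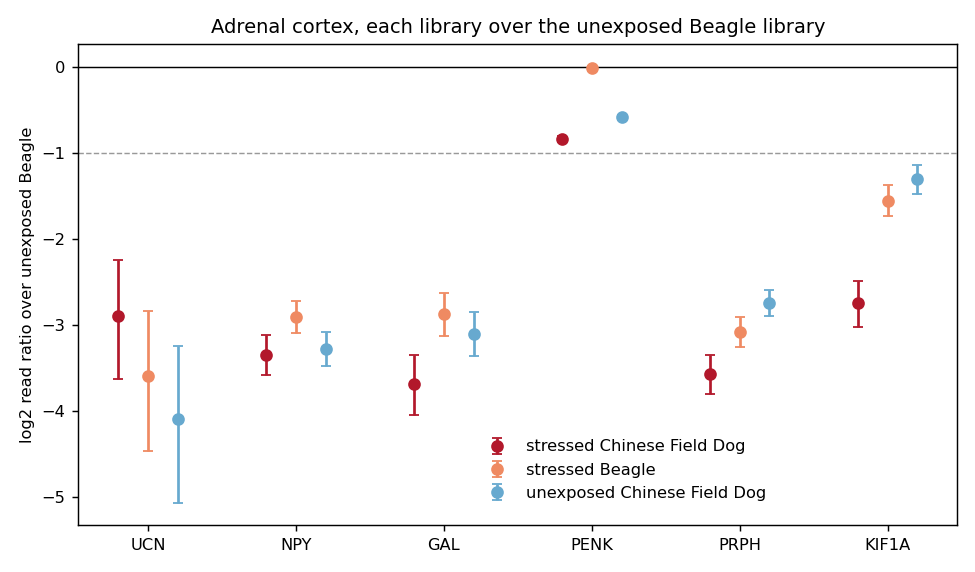
Log2 ratio of recovered reads, each of the other 3 adrenal cortex libraries over the unexposed Beagle library, for the 6 genes. Bars are 95% Clopper-Pearson intervals, which cover counting error only, the dashed line marks a 2-fold lower value, and all 3 ratios of PENK lie above that line while those of the other 5 genes lie below it.

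Set against unexposed Chinese Field Dogs, a different library, stressed Chinese Field Dogs had smaller differences in UCN, NPY and GAL than against unexposed Beagles. The log2 difference was 0.98 for UCN (2.29-fold by FPKM, interval of the read ratio 0.10 to 2.34, from 21 and 12 reads), -0.06 for NPY (-0.37 to 0.22), -0.53 for GAL and -0.24 for PENK (-0.28 to -0.21). PRPH differed by -0.75 and KIF1A by -1.08. KIF1A was therefore the 1 member at least 2-fold lower, beside 1.03% of all genes. Against stressed Beagles, stressed Chinese Field Dogs differed by 0.58 for UCN, -0.43 for NPY, -0.74 for GAL and -0.88 for KIF1A on the same log2 scale, all under 1 in size, although KIF1A was 2.28-fold lower by FPKM. For NPY and GAL, the 3 adrenal libraries other than unexposed Beagle were thus within 2-fold of each other.

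Divided by TH, the rate-limiting enzyme of catecholamine synthesis and a gene of chromaffin cells, NPY stood at 0.194 in stressed Chinese Field Dogs, 0.248 in stressed Beagles, 0.193 in unexposed Chinese Field Dogs and 1.04 in unexposed Beagles. GAL per TH was 0.0613, 0.101, 0.0870 and 0.415 in the same order, and UCN per TH was 0.0509, 0.0297, 0.0211 and 0.204. Relative to TH, then, these 3 genes were highest in unexposed Beagles, but TH is only 1 of 9 chromaffin genes. Its log2 differences from unexposed Beagles were -0.93, -0.85 and -0.86 in the other libraries in that order. Those of the 9 ranged from -2.06 to -0.93, from -1.34 to -0.49 and from -1.73 to -0.64. Ratios to another of them would differ, and the part of chromaffin cell content was not tested. PENK per TH was 11.9, 19.8, 13.4 and 11.2, lowest in unexposed Beagles.

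Other neuronal cytoskeleton genes followed PRPH, and which cells their transcripts came from was not tested. All 10 matched neuronal cytoskeleton genes were highest in unexposed Beagles, and 7 of them were at least 2-fold lower in each of the other 3 adrenal libraries. The median log2 difference of the 10 from unexposed Beagles was -1.94 in stressed Chinese Field Dogs, -1.41 in stressed Beagles and -1.54 in unexposed Chinese Field Dogs, where the medians over all genes tested were -0.00, 0.00 and -0.03. STMN2, a tubulin-binding protein of growing axons, was at 44.7 FPKM in stressed Chinese Field Dogs, 67.7 in stressed Beagles, 57.3 in unexposed Chinese Field Dogs and 248 in unexposed Beagles. UCHL1, an abundant ubiquitin hydrolase of neurons, was at 21.4, 32.7, 31.5 and 128 FPKM in the same order, and MAP1B, which binds microtubules in axons, at 3.34, 5.09, 5.81 and 20.9. NEFM, a neurofilament subunit chosen here after its values were seen, had the smallest differences, at 45.3, 38.1 and 43.8 FPKM in the other 3 libraries against 61.97 FPKM in unexposed Beagles. Of 11 other kinesin and axonal transport genes, 2 were 2-fold lower in all 3 libraries, the neuronal kinesins KIF5A and KIF5C. KIF5A was at 5.62, 10.7, 9.83 and 25.02 FPKM in the same order.

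Schwann and sustentacular cell markers, which are glial, were also highest in unexposed Beagles for 6 of 7 genes tested, with 3 of 7 at least 2-fold lower in each of the other 3 libraries. NGFR, the low-affinity neurotrophin receptor, had the widest range: 7.55 FPKM in stressed Chinese Field Dogs, 8.72 in stressed Beagles, 13.3 in unexposed Chinese Field Dogs and 52.9 in unexposed Beagles. The list summed to 33.9, 38.6, 44.6 and 114 FPKM in the 4 libraries, and its part in the levels of the members was not tested.

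The chromaffin genes had smaller median differences than UCN, NPY and GAL had, and larger ones than PENK. All 9 were highest in unexposed Beagles, and 2 of 9 were 2-fold lower in each of the other 3 libraries, namely the vesicular transporter SLC18A2 and the noradrenaline transporter SLC6A2, with medians of -1.55 in stressed Chinese Field Dogs, -0.85 in stressed Beagles and -0.90 in unexposed Chinese Field Dogs. TH was at 134 FPKM in stressed Chinese Field Dogs, 142 in stressed Beagles, 140 in unexposed Chinese Field Dogs and 255 in unexposed Beagles. DBH, which makes noradrenaline, was at 239, 467, 331 and 758 FPKM in the same order, and PNMT, which turns it into adrenaline, at 382, 584, 345 and 962. The order of the other 3 libraries differed between these enzymes. Of 9 sympathoadrenal transcription factors 1 was 2-fold lower in all 3 libraries, namely HAND1, and HAND2 was as high in stressed Beagles (62.3 FPKM) as in unexposed Beagles (61.2 FPKM).

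The granule genes that store and cut peptides were nearer to PENK than to NPY. Of 14, 13 were highest in unexposed Beagles but 1 was 2-fold lower in each of the other 3 libraries, PTPRN, a protein of the granule membrane, at 8.92 FPKM in stressed Chinese Field Dogs, 14.2 in stressed Beagles, 17.0 in unexposed Chinese Field Dogs and 41.0 in unexposed Beagles. CHGA, chromogranin A, was at 989, 1920, 1316 and 1752 FPKM in the same order, so its highest library was stressed Beagle. Of 6 other neuropeptide genes tested 3 were highest in unexposed Beagles and 0 were 2-fold lower in each of the other 3 libraries. CARTPT, another peptide of chromaffin cells, was at 246, 566, 406 and 670 FPKM, and VIP, a peptide of intrinsic adrenal nerves, at 8.09, 5.37, 4.47 and 16.9. By FPKM alone VIP was more than 2-fold lower in each of the other 3 libraries. After adding 1 its log2 difference was -0.98 in stressed Chinese Field Dogs, so it was not counted.

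Genes of acute activity and of fat moved with the members in part. Of 11 genes that cAMP or immediate-early signals induce, 8 were highest in unexposed Beagles and 5 were 2-fold lower in each of the other 3 libraries (CREM, SIK1, NR4A1, ATF3 and PER1). CREM, a cAMP-responsive transcription factor, was at 10.8 FPKM in stressed Chinese Field Dogs, 10.3 in stressed Beagles, 11.8 in unexposed Chinese Field Dogs and 53.1 in unexposed Beagles, while FOS was at 195, 295, 227 and 198. The 4 fat cell genes tested were all 2-fold lower in stressed than in unexposed Beagles, while 0 of 4 were so in stressed and 2 of 4 in unexposed Chinese Field Dogs. Of the 6 cortex markers 1 was highest in unexposed Beagles, MRAP, which carries the corticotropin receptor to the cell surface, at 162, 133, 252 and 407 FPKM. The part of any of these lists in the members' levels was not tested.

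**Figure D3:**
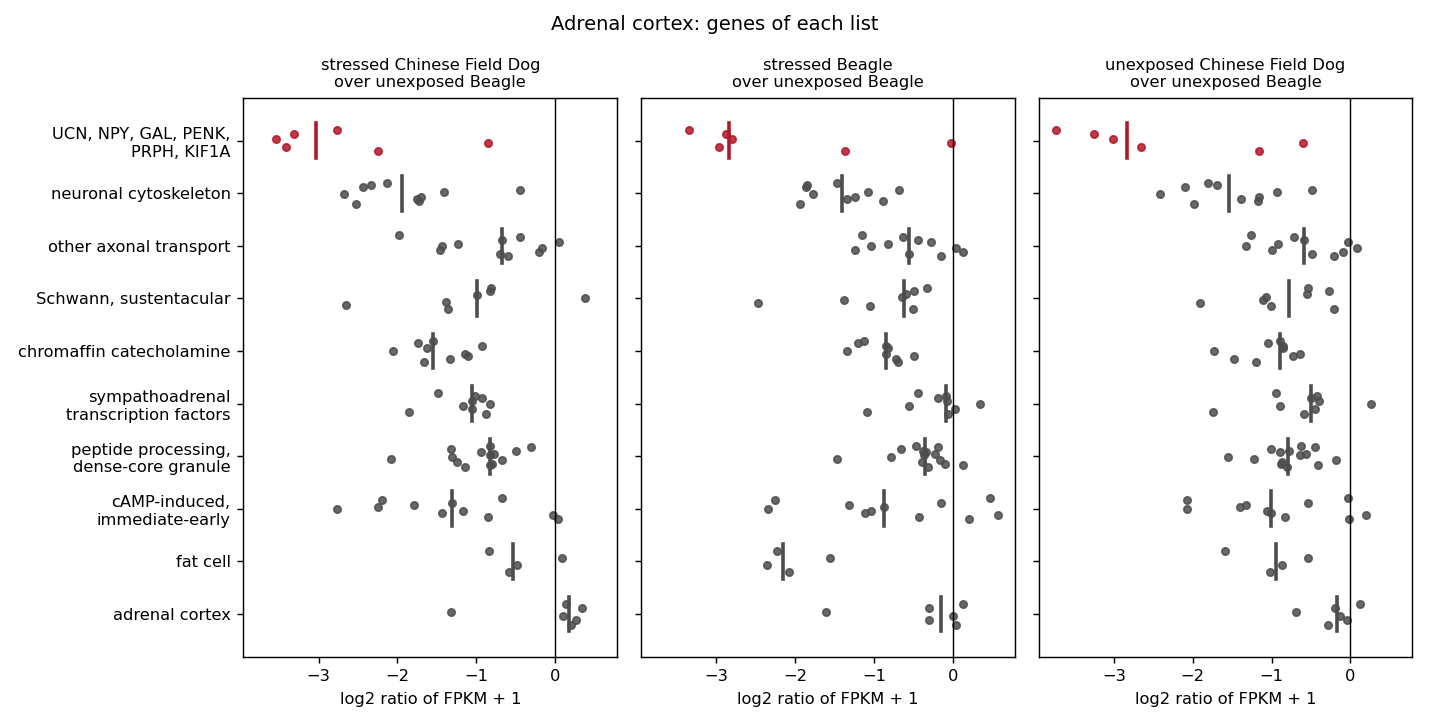
Log2 ratio of FPKM + 1 for the genes of each list in the adrenal cortex, each of the other 3 libraries over the unexposed Beagle library, 1 point per gene that averages 1 FPKM or more and a bar at the list's median. The 6 genes of the top row and the neuronal cytoskeleton genes lie furthest to the left as medians in stressed and unexposed Chinese Field Dogs, and fat cell genes lie further left than the cytoskeleton genes in stressed Beagles.

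In the pituitary, the member that differed by 2-fold or more with stress was NPY, and it was higher in the stressed library of both breeds. NPY was at 114 FPKM in stressed Chinese Field Dogs, 11.8 in stressed Beagles, 7.55 in unexposed Chinese Field Dogs and 1.64 in unexposed Beagles, from 861, 96, 62 and 13 reads. Both stressed libraries lay above both unexposed libraries. The log2 difference was 3.75 in Chinese Field Dogs (15.1-fold by FPKM, interval of the read ratio 3.55 to 4.32) and 2.28 in Beagles (7.20-fold, 1.99 to 3.79). Genes at least 2-fold higher with stress made up 7.85% of all genes tested in Chinese Field Dogs and 1.25% in Beagles. Unexposed libraries of the breeds differed too, with NPY 1.70 higher on the log2 scale in Chinese Field Dogs than in Beagles.

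The Chinese Field Dog difference came with brain transcripts. All 8 forebrain neuron markers were at least 2-fold higher in the stressed than in the unexposed Chinese Field Dog pituitary, with a median log2 difference of 5.27, and SLC17A7, the glutamate transporter of cortical neurons, was at 203 FPKM, against 0.518 FPKM in the unexposed library. NEUROD6 and TBR1, transcription factors of the same neurons, were at 45.2 and 10.5 FPKM in stressed Chinese Field Dogs and at 0 in the other 3 pituitary libraries. Other neuropeptide genes were at least 2-fold higher in 9 of 13 cases. CCK, cholecystokinin, was at 152 FPKM in stressed Chinese Field Dogs, against 0.307 FPKM in unexposed ones, TAC1, the substance P precursor, at 121 FPKM in stressed and 0.664 FPKM in unexposed ones, and SST, somatostatin, at 103 FPKM in stressed and 4.75 FPKM in unexposed ones. The neuronal cytoskeleton genes were 2-fold higher in 7 of 10 cases. The part of forebrain transcripts in the NPY level of this library was not tested.

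In Beagles the forebrain markers were low in both libraries, summing to 5.70 FPKM with stress and 4.56 FPKM without, while NPY was 7.20-fold higher with stress. None of the 3 forebrain markers averaging 1 FPKM or more was 2-fold different. The 3 posterior lobe and hypothalamic genes were all higher in stressed Beagles (median log2 difference 0.99), among them OXT, the oxytocin gene of hypothalamic nerve terminals, at 69.8 FPKM against 21.0 FPKM in unexposed Beagles. Those genes were lower in stressed Chinese Field Dogs, where OXT was at 12.5 FPKM against 55.7 FPKM in unexposed Chinese Field Dogs. Their part in the NPY difference was not tested.

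**Figure D4:**
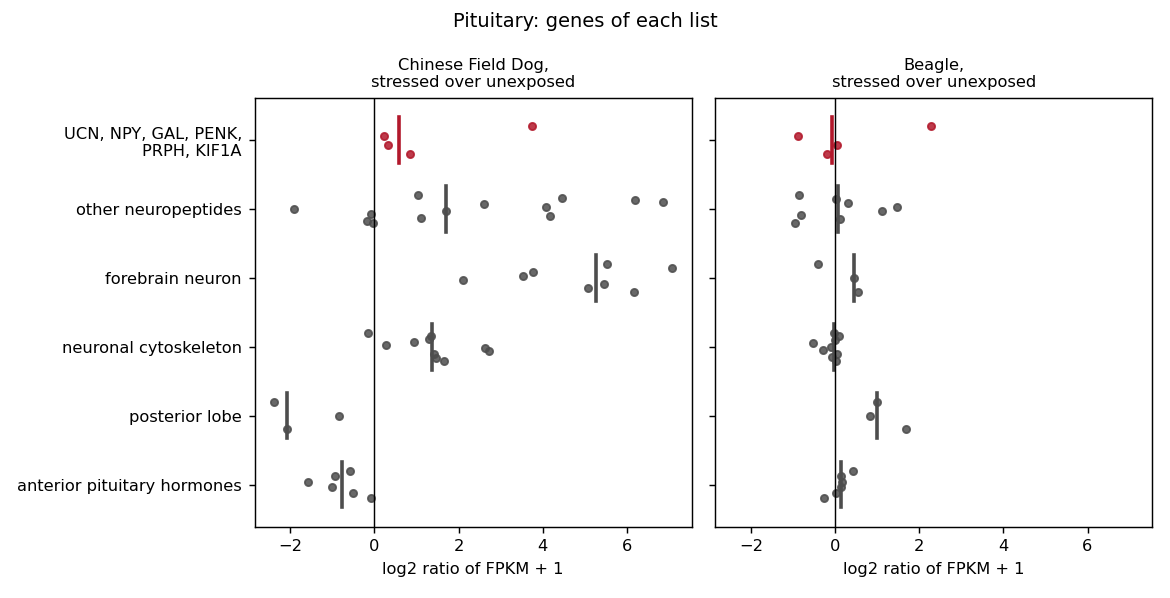
Log2 ratio of FPKM + 1 for the genes of each list in the pituitary, stressed over unexposed, for Chinese Field Dogs (left) and Beagles (right), 1 point per gene and a bar at the median. NPY is the rightmost point of the top row in both breeds (3.75 and 2.28), forebrain neuron markers are all to the right in Chinese Field Dogs and within 1 of 0 in Beagles, and UCN and GAL, with at most 1 read a library, and GH1, with a failed estimate in unexposed Beagles, are not drawn.

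The other members differed by less in the pituitary. UCN had 0 reads in all 4 pituitary libraries, and GAL had 1, 1, 0 and 1 reads in stressed Chinese Field Dogs, stressed Beagles, unexposed Chinese Field Dogs and unexposed Beagles, so neither could be compared there. PENK was at 253, 183, 216 and 342 FPKM in that order, with log2 differences of 0.22 with stress in Chinese Field Dogs and -0.90 in Beagles. KIF1A was at 85.5, 40.0, 47.3 and 46.1 FPKM, with differences of 0.84 and -0.20. The signs of both genes differed between the breeds, and KIF1A was high in the library that also held the forebrain markers. PRPH was low throughout, at 2.53, 1.62, 1.83 and 1.57 FPKM.

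Taking the breeds as replicates of stress, limma called 1 of 14806 genes in the pituitary at an adjusted p of 0.05, or 0.00675%, and 611 had an unadjusted p below 0.05. By edgeR 0 genes were called and by DESeq2 64. The mean log2 difference was -0.34 for PENK, 0.32 for KIF1A and 0.17 for PRPH, and limma called none of them. The error in this fit is shared with the adrenal stress ratios, which hold the values that chose the members. The lack of a call for these members is therefore no test of them. NPY had a mean log2 difference of 3.02 over the 2 breeds and was higher with stress in both. Its standard error of 0.78 comes from the same shared error and is not the spread between the 2 breeds. Since the pituitary values of NPY were part of the choice of members, no test of it is given.

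Receptors for these peptides were mostly low. CRHR1, the corticotropin-releasing hormone receptor that UCN also binds, was at 38.7, 38.02, 38.5 and 43.7 FPKM in the pituitary of stressed Chinese Field Dogs, stressed Beagles, unexposed Chinese Field Dogs and unexposed Beagles, and at 1.45 FPKM or less in the adrenal libraries. CRHBP, the binding protein of that hormone family, was at 20.7, 34.8, 15.7 and 42.6 FPKM in the adrenal libraries in the same order. Neither gene separated the unexposed Beagle adrenal library by 2-fold from all the others. NPY1R, a receptor of neuropeptide Y, was at 1.64 to 3.14 FPKM in the adrenal libraries, and in the pituitary at 10.3 FPKM in stressed Chinese Field Dogs, 2.47 in stressed Beagles, 2.08 in unexposed Chinese Field Dogs and 1.82 in unexposed Beagles.

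Between tissues, GAL, PENK, UCN and PRPH were higher in adrenal cortex than in pituitary, and KIF1A was lower, in a limma fit on log2(FPKM + 1). With all 4 libraries a tissue, 31.2% of 14806 genes were higher in adrenal cortex and 29.3% lower at an adjusted p of 0.05. PENK ranged from 1586 to 2854 FPKM in adrenal cortex and from 183 to 342 in pituitary, a log2 difference of 3.19 (SE 0.22). All adrenal libraries lay above all pituitary libraries for PENK, GAL, UCN and PRPH. GAL differed by 4.31 (SE 0.61), UCN by 3.26 (SE 0.74) and PRPH by 2.77 (SE 0.64). The unexposed Beagle adrenal library, on which the members were selected, adds to these differences, so the tests given for members leave it out. Without it GAL differed by 3.58 (SE 0.21, limma adjusted p = 0.000228), UCN by 2.38 (SE 0.27, limma adjusted p = 0.00142), PRPH by 2.005 (SE 0.23, limma adjusted p = 0.00165) and PENK by 3.16 (SE 0.27, limma adjusted p = 0.000631). UCN had 211 adrenal reads and 0 pituitary reads. With a floor of 3 reads set for the pituitary group, its read share was 61.6-fold higher in adrenal cortex, and 18.2-fold higher without the unexposed Beagle library. The lower 95% limits of the read share ratio were 49.7-fold and 14.2-fold in that order.

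KIF1A ranged from 1.90 to 12.7 FPKM in adrenal cortex and from 40.0 to 85.5 in pituitary, with every adrenal library below every pituitary library (log2 difference -3.15, SE 0.47). Without the unexposed Beagle adrenal library the difference was -3.58 (SE 0.40, limma adjusted p = 0.00140). The neuronal cytoskeleton genes were fitted with all 8 libraries only, the unexposed Beagle adrenal library included. In that fit 6 of 10 were called lower in adrenal cortex and 0 higher, with a median log2 difference of -1.99. PRPH, higher in adrenal cortex, differed in direction from those that were called. In the same fit, NEFM and NEFH, which are neurofilament genes, had the direction of PRPH, with log2 differences of 0.72 and 0.45, and were not called. NEFH was at 6.73 FPKM in the unexposed Beagle adrenal library and at 1.38 to 2.46 FPKM in the other adrenal libraries. The direction of NEFM and NEFH without that library is not given here. NPY overlapped between tissues, at 25.8 to 266 FPKM in adrenal cortex and 1.64 to 114 in pituitary (log2 difference 1.94, SE 1.33). The difference was 3.22 without the stressed Chinese Field Dog pituitary, the library with forebrain markers, and 0.50 without the unexposed Beagle adrenal library. NPY was chosen by its values in both tissues, so no test of it is given. Nothing in the labels says that libraries are separate animals, so these p-values measure the spread between these libraries, which may be technical.

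Across all 8 libraries, the genes whose log2(FPKM + 1) pattern lay nearest to UCN, by root mean square difference after centring each gene and over 12776 genes, were PRPH (0.52), NGFR (0.54), IL8 (0.60), SNCG (0.62) and CIDEC (0.63). Among those nearest to GAL were SLC6A2 (0.56), the noradrenaline transporter, GPNMB (0.62), UCN (0.67) and NGFR (0.68). NPY, with its separate pituitary pattern, had no neighbour as close: VIP was nearest (0.91), and RGS4 (0.95), GABRG1 (1.04) and CDH9 (1.09) were among the next. Within the 4 adrenal libraries the closest members were NPY and GAL, with a root mean square difference of 0.17 log2 units, and then GAL and PRPH with 0.19, while PENK and UCN differed by 1.32. These distances describe 8 libraries that share tissue and dissection, and carry no test.

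In the genome the 6 genes lie on different chromosomes of the CanFam3.1 build, so none neighbours another. As deposited, NPY spans 37824560 to 37831424 on chromosome 14, GAL 49240310 to 49246359 on chromosome 18, PENK 7757862 to 7758519 on chromosome 29, PRPH 5314757 to 5318479 on chromosome 27 and KIF1A 50859012 to 50923122 on chromosome 25. None of these 5 spans overlaps that of another gene in the table, in contrast to UCN. The span of PENK is the shortest, and its FPKM divides by whatever length the authors used, which is not given in the sources used here.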

How the data were processed

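The deposited files were 8 tables of paired libraries. The authors' FPKM values are levels per gene length and depth. The count columns, per the file headers, hold a signal: reads that the authors scaled, so that 1 read is worth a fixed step in a library (0.899 to 1.17). Dividing by the step recovered reads. Of the gene values in a library, 99.1% to 99.3% were whole within 0.02, counting genes with 0 reads, which are whole in any case. In the stressed Beagle adrenal cortex and stressed Chinese Field Dog pituitary the step is near 1, so reads there are taken as near the true counts. The authors' deposited p-values were read and not used as results. Reads were aligned with TopHat to CanFam3.1, per the submitters' processing notes; versions, the counting program and the annotation are not given in the sources used here. A library's values did not differ between tables (16 of 16 repeated columns), and 0 per-sample columns were left unused.

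Log2 differences were taken on FPKM + 1 over genes averaging 1 FPKM or more, and 2-fold was the size counted. Differences of 2 libraries carry no test, only 95% Clopper-Pearson intervals on reads. Limma 3.58.1 in R 4.3.3 tested tissue (terms for breed and exposure, 4 libraries each) and stress in the pituitary (4 stressed minus unexposed ratios), with Benjamini-Hochberg adjustment over all genes and a threshold of 0.05. The count tests edgeR 4.0.16 and DESeq2 1.42.0, run on recovered reads, called 8963 and 8971 genes for tissue and 0 and 64 for stress, against 8953 and 1 by limma. GH1 and RRBP1, with a failed estimate in the unexposed Beagle pituitary, were left out of these tests. Scripts were tested on simulated data. The members and the 14 gene lists were chosen with earlier results of these data known. Named genes of a list were the 3 highest by FPKM and the 3 with the largest Beagle adrenal ratio, and for patterns the 5 nearest genes; NEFM, KIF5C, ATF3, PER1, SST, NEUROD6, TBR1 and TRIM54 were named after their values were seen. Some genes that the rule picks are not reported here. Another pseudocount, no filter, other scalings, other tools and leaving out each library were tried.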

Additional observations from a re-analysis of the deposited data

Results flagged for a closer look

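NPY in the unexposed Beagle adrenal cortex, at 266 FPKM, lay far from the other 3 adrenal libraries. On the log2(FPKM + 1) scale its gap to the nearest of them was 0.870 of the whole range. That is above the critical value of Dixon's test for 4 samples. The member was chosen for its level there, so this describes the gap and is no test, and the usual chance rate of about 1 in 20 groups does not apply.

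Stress ratios of opposite sign were flagged for 3 members, and none of these differences was tested, with 1 library a group. The flags do not cover every change of sign. PENK in the pituitary, for example, differed by 0.22 in Chinese Field Dogs and by -0.90 in Beagles on the log2(FPKM + 1) scale. UCN in the adrenal cortex differed by 0.98 in Chinese Field Dogs and by -3.35 in Beagles on the log2(FPKM + 1) scale. NPY in Beagles differed by -2.88 in the adrenal cortex and by 2.28 in the pituitary. KIF1A in Chinese Field Dogs differed by -1.08 in the adrenal cortex and by 0.84 in the pituitary.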

How the results depend on the processing

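The count of 5 members at least 2-fold lower than in the unexposed Beagle adrenal cortex, and the 2 NPY differences in the pituitary, were the same under another pseudocount, no filter, a filter on reads, TMM and DESeq2 scaling. Genes called between tissues (8953) ranged from 7708 to 9366 when 1 library was left out. Genes called for stress in the pituitary (1) became 2 with a pseudocount of 0.1, 0 by edgeR and 64 by DESeq2, and 41 to 83 when the ratio of 1 breed was left out, where the lone pituitary ratio is assumed to vary like the adrenal ones; the cause was not tested. Of values of single members, 4 moved by more than the half-width of their counting interval, none reversed, and the differences of PENK and KIF1A from unexposed Beagles kept their sign. A block of each breed and exposure combination across tissues, which the labels do not tie to the same dogs, gave 8770 calls. With 12 to 21 reads, UCN outside the unexposed Beagle library is limited by depth.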
